A study of Mus musculus with 4 samples.

Results

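Cytosolic chaperones and heat shock proteins were followed in HT-22 cells, a permanently growing mouse line of hippocampal neuronal origin, with and without overexpression of PGC-1α and with and without oxygen and glucose deprivation (OGD). The list held 40 genes, chosen by name but with earlier results of these data known. Of them, 38 had a value among the 11492 gene symbols of the series. The levels of the small heat shock protein gene Hspb1 and the chaperonin subunit gene Cct6a were not analysed here. All 38 genes passed the filter on low values, as did 10598 genes in all. RNA-Seq was available for 4 libraries, 1 per group. Ctrl cells, whose genotype is labelled wild type, carried the negative control lentivirus according to the methods of the study, and PGC-1α cells carried the PGC-1α-overexpressing lentivirus. Both types of cells had been selected with puromycin. The Ctrl+OGD and PGC-1α+OGD cells were the same types of cells after 2 h without oxygen, serum and glucose, followed by 24 h in normal medium. Because each group had 1 library, no difference could be checked in replicates and p values were not computed. Values were taken as FPKM, a number of fragments corrected for transcript length and library size, after summing all deposited transcripts of a gene. Log2 fold changes are differences of log2(FPKM + 1), in which low genes change less than in FPKM, and the criterion for a higher or a lower gene was a ratio of 1.5 or more on this scale. Where 4 values follow each other, they stand for Ctrl cells, PGC-1α cells, Ctrl+OGD cells and PGC-1α+OGD cells, in this order.

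Molecular chaperones hold unfolded or partly folded proteins and help them to reach their native state. HSP70 binds short hydrophobic stretches in cycles of ATP binding and hydrolysis, which J-domain proteins start and nucleotide exchange factors complete. HSP90 takes over clients such as kinases and steroid receptors with the help of cochaperones, while the ring-shaped CCT chaperonin folds actin and tubulin. Under heat or other protein-damaging stress, HSF1 binds heat shock elements, inverted repeats of the bases GAA, in the promoters of many of these genes. HSF1 activity is mainly set by its release from chaperones, its trimerization and its modification.

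The total of the deposited values lay between 331892 and 353381 FPKM in the 4 libraries, and the number of reads behind them is unknown. Ppargc1a, the gene of PGC-1α, was at 0.900, 35.1, 0.103 and 8.41 FPKM, so the libraries followed their labels. Of 12 neuronal marker genes, 9 had no value here, among them Rbfox3, Map2, Tubb3 and Snap25. The other 3 (Syp, Eno2 and Camk2a) summed to between 5.62 and 9.51 FPKM, and their orders of the libraries differed. Eno2 was at 1.20, 0.410, 2.81 and 1.36 FPKM, and was highest in Ctrl+OGD. Camk2a, at 7.31, 4.95, 4.40 and 4.59 FPKM, and Syp, at 0.997, 0.258, 0.893 and 0.507 FPKM, were highest in Ctrl. Of 12 markers of glia, endothelium and fibroblasts, 5 had a value and summed to between 201 and 263 FPKM, most of it from the collagen gene Col1a1 with 156 to 198 FPKM, while Gfap, Aqp4, Mog, Olig2, Aif1, Pecam1 and Cldn5 had none. Pdgfra, a marker of fibroblasts and of oligodendrocyte precursors, had 59.1 FPKM in the Ctrl library against 37.2 FPKM after OGD, and was lower in both OGD libraries than in both others. The other markers with a value did not all follow Pdgfra. Col1a1, at 175, 198, 169 and 156 FPKM, was also lower in both OGD libraries. Its ratio in Ctrl+OGD vs Ctrl was 0.970. Mbp, at 3.88, 3.26, 3.52 and 4.76 FPKM, was highest in PGC-1α+OGD. Slc1a3 and Cx3cr1, both averaging under 1 FPKM, were higher in Ctrl+OGD than in Ctrl, but lower in PGC-1α+OGD than in PGC-1α. The part of Pdgfra, or of a change in the makeup of the cells, in the values of the chaperone genes was not tested. In such bulk samples, fewer cells of a kind and less RNA per cell cannot be told apart.

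The promoters of the chaperone genes that differed most between libraries are shown first, because the heat shock element is the sequence by which this gene group is best known. In the reference of RefSeq, build GRCm38.p6, 32 of the 40 listed genes had a window of 250 bases before to 50 bases after a start site. The windows were searched for the pair GAANNTTC or TTCNNGAA and for the triple GAANNTTCNNGAA or TTCNNGAANNTTC, each form being its own reverse complement or that of the other, so that both strands were covered. The pair was found for 13 of the 32 genes (40.6%) and for 17.0% of all 27025 genes with a window. The 13 genes include Hspb1 and Cct6a, whose levels were not analysed here. The triple, which contains overlapping pairs, was found for 3 of the 32 genes (9.38%), namely Hsph1, Chordc1 and Dnajb6, and for 0.662% of all genes. A match describes letters and is not a measured binding site. Sequences are given for the 5 genes past 1.5-fold in a comparison that had a distinct window. Dnajb6 is added as a gene with a triple and a flat summed level. The 250 bases before each start site follow, with every pair in capitals. They lie at chr17:34972157-34972406 on the minus strand (Hspa1a), chr5:149636337-149636586 on the minus strand (Hsph1), chr4:40722218-40722467 on the plus strand (Dnaja1), chr19:7040027-7040276 on the minus strand (Stip1), chr17:12916079-12916328 on the plus strand (Tcp1) and chr5:29735648-29735897 on the plus strand (Dnajb6).
Hspa1a: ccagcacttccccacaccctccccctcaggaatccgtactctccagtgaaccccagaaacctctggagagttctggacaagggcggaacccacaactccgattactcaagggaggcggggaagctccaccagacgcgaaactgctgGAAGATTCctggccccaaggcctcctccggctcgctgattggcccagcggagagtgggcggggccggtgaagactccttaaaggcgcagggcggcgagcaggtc
Hsph1: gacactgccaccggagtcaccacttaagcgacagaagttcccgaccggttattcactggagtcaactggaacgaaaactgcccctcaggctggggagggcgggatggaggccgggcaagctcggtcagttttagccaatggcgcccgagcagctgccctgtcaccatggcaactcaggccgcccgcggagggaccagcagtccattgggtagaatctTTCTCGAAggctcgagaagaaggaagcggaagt
Dnaja1: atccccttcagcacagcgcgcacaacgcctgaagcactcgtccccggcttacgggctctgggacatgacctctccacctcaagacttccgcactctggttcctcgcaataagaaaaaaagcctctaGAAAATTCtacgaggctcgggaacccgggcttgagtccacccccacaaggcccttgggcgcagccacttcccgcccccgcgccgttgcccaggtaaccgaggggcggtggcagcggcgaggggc
Stip1: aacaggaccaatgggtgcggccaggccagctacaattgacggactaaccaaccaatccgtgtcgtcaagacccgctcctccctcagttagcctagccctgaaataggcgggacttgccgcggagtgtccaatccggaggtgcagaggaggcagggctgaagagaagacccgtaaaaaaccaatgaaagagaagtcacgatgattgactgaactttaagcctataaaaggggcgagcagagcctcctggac
Tcp1: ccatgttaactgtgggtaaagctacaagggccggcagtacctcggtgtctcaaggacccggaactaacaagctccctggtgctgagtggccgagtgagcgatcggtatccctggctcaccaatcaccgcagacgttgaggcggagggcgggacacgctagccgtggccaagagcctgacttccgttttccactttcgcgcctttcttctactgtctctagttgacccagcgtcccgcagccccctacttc
Dnajb6: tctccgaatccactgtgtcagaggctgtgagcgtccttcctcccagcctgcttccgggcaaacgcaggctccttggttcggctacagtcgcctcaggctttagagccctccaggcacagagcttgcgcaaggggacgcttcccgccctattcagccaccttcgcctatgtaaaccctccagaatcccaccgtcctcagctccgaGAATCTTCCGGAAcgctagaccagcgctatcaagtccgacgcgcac
The Hspa1b promoter, at chr17:34959239-34959488 on the minus strand, differs from that of Hspa1a at 3 of 250 bases (positions -207, -204 and -2 from the start site) and has the same pair at position -104. In Hsph1 the window continues after the start site with the triple TTCTGGAAAGTTC at position 37, and in Dnajb6 the triple GAATCTTCCGGAA begins at position -46. Chordc1 has GAACGTTCGGGAA at position -4, followed by 2 further triples that overlap it or each other. Positions are counted from the start site of the window shown, and Hsph1 and Dnajb6 have another RefSeq start site as well, from which the same letters lie at other positions. No pair is present in the windows of Stip1 and Tcp1, and the windows of Hspa8 and Hsp90aa1 were not analysed here.

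After OGD in control cells, the chaperone genes were mostly at higher levels. In Ctrl+OGD vs Ctrl, 6 of the 38 genes (15.8%) were higher by at least 1.5-fold, where 6.2% of all genes tested were, and 0 were lower, where 7.71% of all genes were. The 6 genes were Hsph1, Dnaja1, Hsp90aa1, Tcp1, Stip1 and Hspa8. Over the whole list, the log2 fold change was above 0 in 33 of 38 genes (86.8%) against 48.0% of all genes, and the median was 0.32 against -0.02. Abundant genes as a whole also had higher values in this comparison. Among the 1436 genes averaging 50 FPKM or more the median was 0.15, 71.8% were above 0 and 8.08% were higher by 1.5-fold. Of the 21 chaperone genes at this level, 20 were above 0, 5 were higher by 1.5-fold and the median was 0.37. The part of this general shift in the values of the chaperone genes was not tested. In the comparisons and rankings of libraries that follow, the shares are over genes of all levels. The part of abundance in them was not tested either.

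The same comparison in the PGC-1α cells gave smaller values. In PGC-1α+OGD vs PGC-1α, 0 of the 38 genes were past 1.5-fold in either direction, where 3.82% of all genes were higher and 5.21% lower. The log2 fold change was above 0 in 32 of the 38 genes (84.2%) against 50.1% of all genes, with a median of 0.13 against 0.00 and a range from -0.39 to 0.32. The highest values were those of Dnaja1 and Hspbp1 (both 0.32) and Dnajb2 (0.31), and the lowest those of Hspa1a (-0.39), Hspa2 (-0.38) and Cryab (-0.37).

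Without OGD, the PGC-1α library was also above the Ctrl library for most chaperone genes, though few were past the fold criterion. In PGC-1α vs Ctrl, 2 of 38 genes (5.26%), the inducible HSP70 genes Hspa1a and Hspa1b, were higher by at least 1.5-fold, which is close to the 4.92% of all genes tested. None of the 38 genes was lower by 1.5-fold, where 5.63% of all genes were. The log2 fold change was above 0 in 31 of 38 genes (81.6%) against 45.8% of all genes, and the median was 0.16 against -0.03. After OGD this was not the case. In PGC-1α+OGD vs Ctrl+OGD, 0 of 38 genes were past 1.5-fold, where 3.09% of all genes were higher and 3.82% lower. Only 12 genes (31.6%) were above 0 against 47.1% of all genes, and the median was -0.06 against -0.01.

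A single Ctrl library served as the reference for PGC-1α and for Ctrl+OGD alike. Ctrl was the lowest of the 4 libraries for 30 of the 38 chaperone genes (78.9%), where it was the lowest for 28.2% of all genes. PGC-1α was the lowest for 4 genes (Hspb11, Dnajb2, Cct4 and Cct8) and for 24.4% of all genes. Ctrl+OGD was the lowest for Hsf1 and Dnajb6 (24.4% of all genes), and PGC-1α+OGD for Hspa2 and Cryab (23.0% of all genes). The highest library was Ctrl+OGD for 21 chaperone genes and 26.1% of all genes, and PGC-1α+OGD for 10 and 19.0%. It was PGC-1α for 4 and 20.4%, and Ctrl for 3 (Hspa2, Hspb11 and Dnajb2) and 34.5%. In 31 chaperone genes (81.6%) and 32.4% of all genes, PGC-1α and Ctrl+OGD were both above Ctrl. With 1 library, a low level of chaperone genes in Ctrl cells and a property of that library cannot be told apart. The 38 genes together held 1.14%, 1.26%, 1.38% and 1.36% of the total FPKM, with the lowest share in Ctrl and the highest in Ctrl+OGD. Without Hsp90ab1, the most abundant of them, the shares were 0.758%, 0.855%, 0.954% and 0.938%. For 29 of the 38 genes, the highest library was less than 1.5 times the lowest (76.3%), where this held for 63.7% of all genes.

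**Figure D1:**
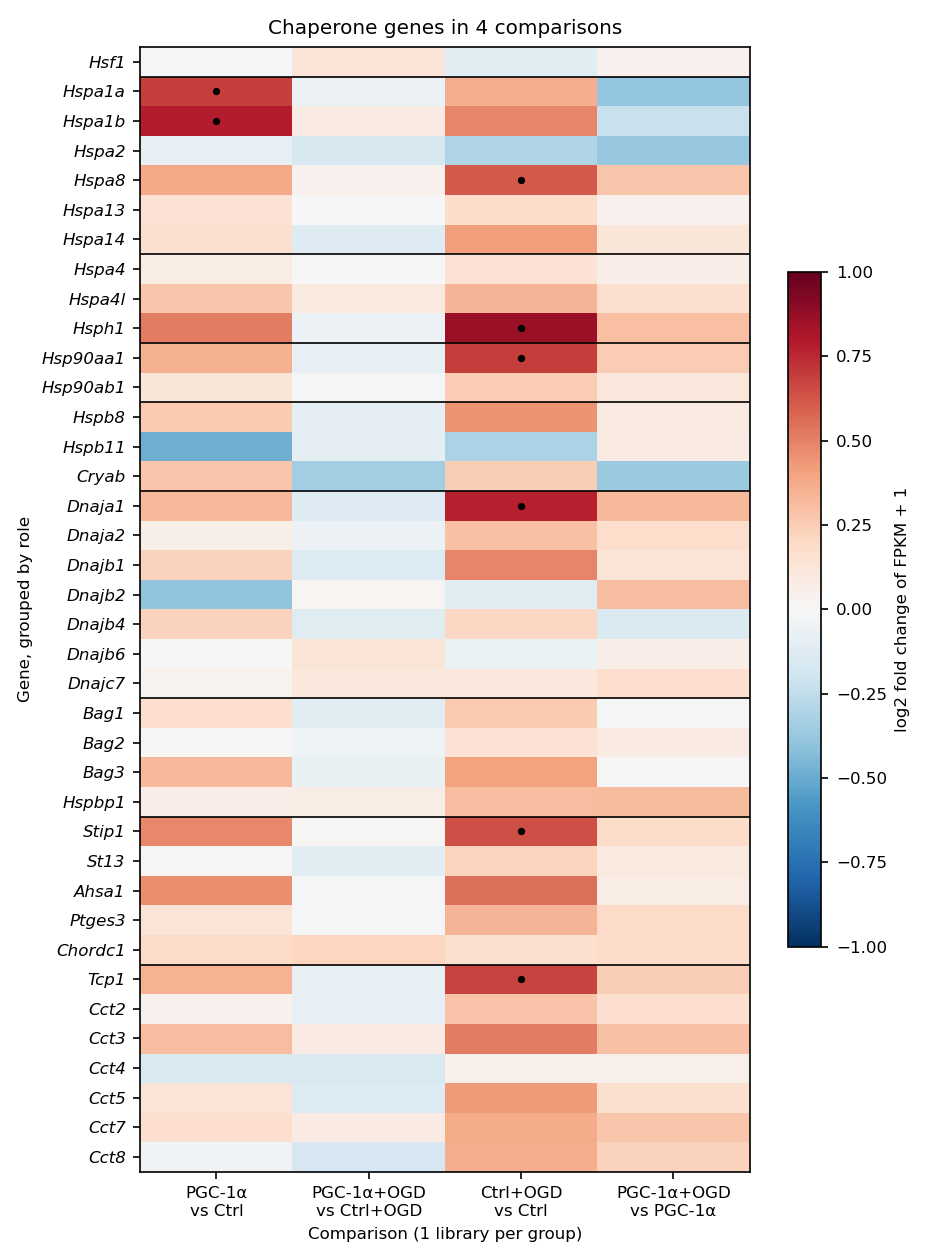
Log2 fold change of FPKM + 1 (colour) of the 38 chaperone genes (rows, grouped by role) in 4 comparisons (columns), each between 2 single libraries, with a dot where the fold change is at least 1.5. Dots appear for 2 genes in PGC-1α vs Ctrl and for 6 genes in Ctrl+OGD vs Ctrl, and in neither of the other columns.

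**Figure D2:**
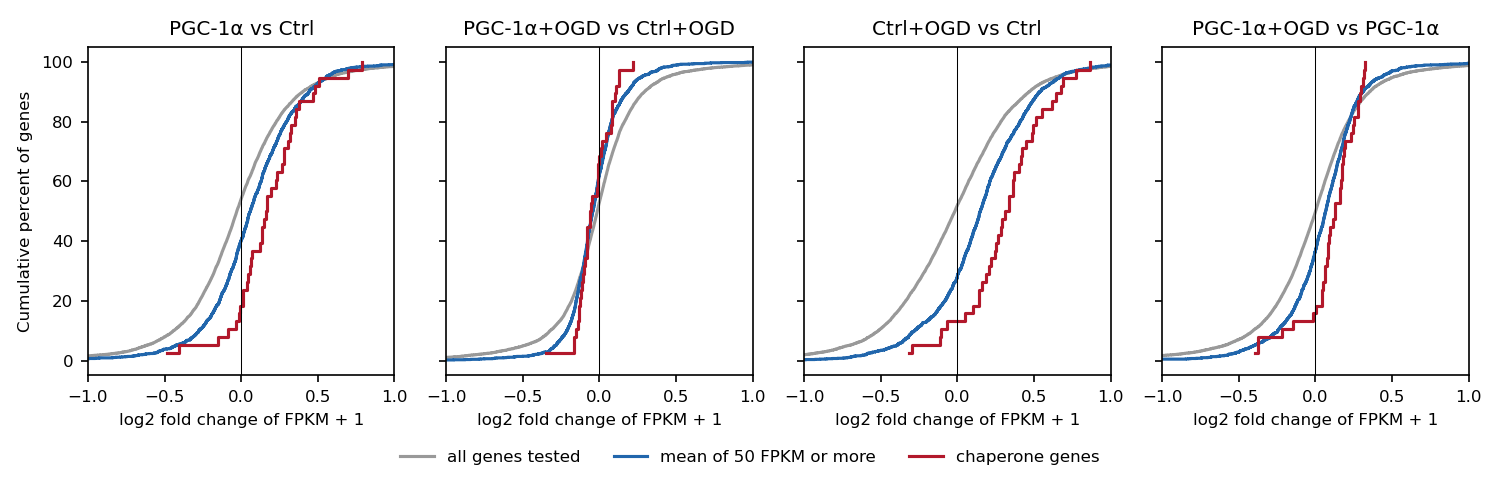
Cumulative percent of genes (vertical axis) by log2 fold change of FPKM + 1 (horizontal axis, shown from -1 to 1) for the 38 chaperone genes, all 10598 genes tested and the 1436 genes averaging 50 FPKM or more. In Ctrl+OGD vs Ctrl the chaperone genes lie to the right of the other curves over most of their range, with medians of 0.32, -0.02 and 0.15.

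Hsf1, the transcription factor of the heat shock response, differed little. It was at 12.1, 12.0, 11.2 and 12.4 FPKM. The highest of these was 1.10 times the lowest. This value is the sum of 6 deposited transcripts, between which the leading transcript changed from library to library.

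In the HSP70 family, the constitutive member and the inducible members had different orders of the libraries. Hspa8, the constitutive cytosolic HSP70, is located on chromosome 9 of GRCm38 from 40800984 to 40810087 on the plus strand. It was at 212, 277, 326 and 336 FPKM. Both OGD libraries were thus above both libraries without OGD, with a log2 fold change of 0.62 in control cells and 0.28 in PGC-1α cells. Hspa1a and Hspa1b, the stress-inducible HSP70 genes, lie on the minus strand of chromosome 17, from 34969190 to 34972156 and from 34956436 to 34959238. Hspa1a was at 0.882, 2.05, 1.42 and 1.32 FPKM. Hspa1b was at 2.41, 4.89, 3.78 and 4.06 FPKM. Both genes were lowest in Ctrl and highest in PGC-1α, and their log2 fold changes in PGC-1α vs Ctrl were 0.70 and 0.79. The plain ratios of FPKM were 2.32 and 2.03. Their sum was 1.55%, 2.51%, 1.59% and 1.60% of the Hspa8 level, and this share was highest in PGC-1α. These are low levels, so the inducible HSP70 genes were far below the constitutive one in every library.

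The remaining HSP70 genes were all within 1.5-fold. Hspa2, a member known for its role in the testis, was at 6.85, 6.40, 5.39 and 4.70 FPKM, and was the one HSP70 gene with its highest value in Ctrl. Hspa14, a ribosome-associated HSP70, ranged from 46.7 to 62.6 FPKM and was highest in Ctrl+OGD. Hspa13 ranged from 16.3 to 18.7 FPKM, and its product resides in microsomes rather than in the cytosol.

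**Figure D3:**
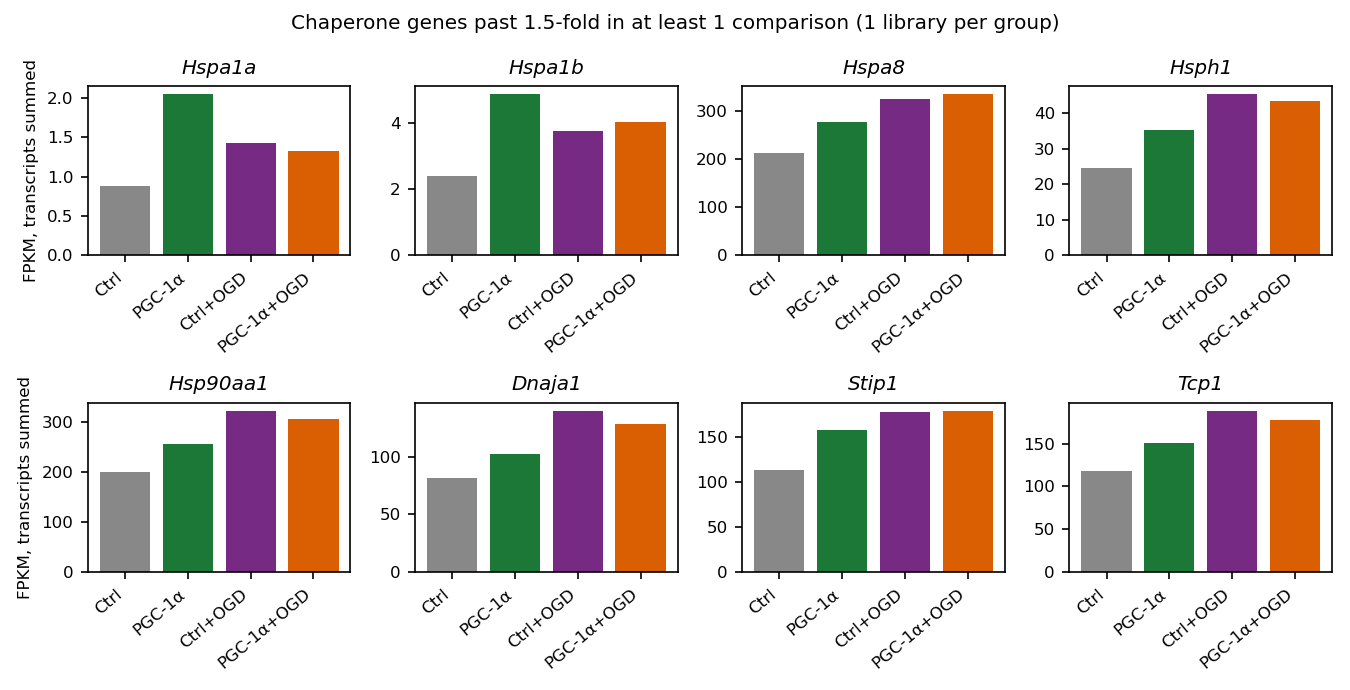
FPKM with transcripts summed (vertical axes, from 0) in each of the 4 libraries (bars) for the 8 chaperone genes past 1.5-fold in at least 1 comparison, each bar being 1 library with no error. Ctrl is the lowest bar for all 8 genes, PGC-1α is the highest for Hspa1a and Hspa1b, and an OGD library is the highest for the other genes.

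The HSP110 proteins are relatives of HSP70 that act as its nucleotide exchange factors. Hsph1 had the largest log2 fold change of all 38 genes in Ctrl+OGD vs Ctrl. It lies on the minus strand of chromosome 5 from 149614287 to 149636376 and was at 24.5, 35.2, 45.4 and 43.5 FPKM. Relative to Ctrl, the log2 fold change was 0.87 in Ctrl+OGD and 0.51 in PGC-1α. Relative to PGC-1α it was 0.30 in PGC-1α+OGD, and the OGD libraries differed by -0.06. The Ctrl library stood below the other three, and the OGD libraries lay close to each other. Hspa4 was at 88.4, 93.0, 97.7 and 97.3 FPKM, and Hspa4l at 2.47, 3.21, 3.38 and 3.70 FPKM. They showed the same lowest library as Hsph1 with smaller differences.

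Of the HSP90 genes, the inducible one differed more than the constitutive one. Hsp90aa1, the inducible isoform, lies on the minus strand of chromosome 12 from 110690605 to 110702728. It was at 200, 256, 322 and 305 FPKM, with a log2 fold change of 0.69 in Ctrl+OGD vs Ctrl. Hsp90ab1, the constitutive isoform and the most abundant of the 38 genes, was at 1251, 1363, 1491 and 1477 FPKM. Its log2 fold change in Ctrl+OGD vs Ctrl was 0.25. Hsp90aa1 therefore stood at 16.0%, 18.8%, 21.6% and 20.6% of the Hsp90ab1 level, with the lowest share in Ctrl. These values of Hsp90aa1 are sums over transcripts, and the direction of its difference after OGD depended on the transcript.

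J-domain proteins deliver clients to HSP70 and stimulate its ATPase. Dnaja1, located on the plus strand of chromosome 4 from 40722150 to 40737149, was at 81.4, 102, 140 and 128 FPKM. Both OGD libraries exceeded both others, and the log2 fold change was 0.77 in control cells. Dnajb1, the classical heat-inducible partner of Hspa1a, was at 13.2, 15.6, 18.9 and 17.1 FPKM, and its log2 fold change of 0.49 in Ctrl+OGD vs Ctrl stayed under the criterion. Dnajb2, known from neurons, had the opposite order without OGD, with 9.80, 7.16, 9.00 and 9.11 FPKM. Dnajb6, a suppressor of polyglutamine aggregation, was at 37.6, 37.5, 35.9 and 39.3 FPKM. By the sum of its transcripts, Dnajb6 thus had nearly the same level in all libraries. With its transcript of the highest mean in place of the sum, its log2 fold change was -0.66 in Ctrl+OGD vs Ctrl. It was 0.93 in PGC-1α+OGD vs Ctrl+OGD. By the sum, Hsph1, which also has a triple in its promoter window, had the largest difference after OGD in control cells. Chordc1, with the third such window, had a log2 fold change of 0.16 in that comparison. Dnaja2, Dnajb4 and Dnajc7 had a highest library between 1.16 and 1.23 times their lowest.

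The nucleotide exchange factors release ADP from HSP70. None of the 4 genes was past 1.5-fold, and all were lowest in Ctrl. Bag1 was at 207, 232, 249 and 230 FPKM. Hspbp1 was the lowest of the group with 10.2, 10.7, 12.8 and 13.6 FPKM. Bag3, a stress-inducible member that directs clients to autophagy, was at 32.4 FPKM in Ctrl and between 40.7 and 43.1 FPKM in the other libraries. Bag2 ranged from 30.7 to 34.0 FPKM. The Ctrl+OGD vs Ctrl log2 fold changes of the 4 genes lay between 0.14 and 0.40.

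Among the cochaperones that link or regulate HSP70 and HSP90, Stip1 stood out. Stip1, which holds both chaperones at the same time and passes clients between them, lies on the minus strand of chromosome 19 from 7020702 to 7039967. It was at 113, 159, 178 and 180 FPKM. The log2 fold change was 0.65 in Ctrl+OGD vs Ctrl and 0.48 in PGC-1α vs Ctrl, and the OGD libraries differed by 0.01. Ahsa1, the activator of the HSP90 ATPase, was at 84.9, 118, 125 and 124 FPKM, so that Ctrl was apart from 3 similar libraries. Chordc1, an HSP90 cochaperone, was the lowest of this group and was at 14.9, 17.2, 16.8 and 19.6 FPKM. St13 ranged from 107 to 124 FPKM, and Ptges3, the p23 protein that stabilizes closed HSP90, from 121 to 153 FPKM.

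The CCT chaperonin is built from 8 different subunits, of which 7 had values. All 7 had a log2 fold change above 0 in Ctrl+OGD vs Ctrl and in PGC-1α+OGD vs PGC-1α, with medians of 0.37 and 0.23. Their sum was 784, 867, 1052 and 1001 FPKM. Tcp1, the first subunit, lies on the plus strand of chromosome 17 from 12915701 to 12925067 and was at 118, 150, 189 and 178 FPKM. Its log2 fold change of 0.67 in Ctrl+OGD vs Ctrl was the only one of the 7 subunits past the criterion. With the transcript of the highest mean in place of the sum, Tcp1 had 0.24 and was no longer past it, and Cct3 was the subunit that passed. Cct5 had the highest level with 250, 274, 336 and 306 FPKM and Cct4 the lowest with 46.0, 41.3, 47.7 and 42.7 FPKM. Although the complex holds its subunits in equal number, the mean levels of the 7 mRNAs thus ranged from 44.4 to 292 FPKM. Cct3 had a log2 fold change of 0.52 in Ctrl+OGD vs Ctrl, and Cct2, Cct7 and Cct8 had values of 0.29, 0.37 and 0.36.

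The small heat shock proteins bind unfolding proteins without ATP. Hspb8, the partner of Bag3, was at 51.4, 61.9, 70.6 and 65.8 FPKM. Cryab, αB-crystallin, was low, at 2.87, 3.69, 3.60 and 2.62 FPKM, and was lowest in PGC-1α+OGD. Hspb11 was at 76.1, 54.0, 61.0 and 57.2 FPKM, with the lowest log2 fold change of the 38 genes in PGC-1α vs Ctrl (-0.49). Despite its name, the product of Hspb11 is known as a subunit of intraflagellar transport in cilia.

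The values of single transcripts were less even than their sums. Of the 38 genes, 27 had 2 or more deposited transcripts, and in 8 of these (29.6%) the transcript with the highest value was not the same in all libraries, where this was so for 33.5% of the 6404 genes of this kind. The 8 genes were Hsf1, Hspa8, Hsp90aa1, Hspb11, Dnajb2, Dnajb4, Dnajb6 and Bag1. For Hspa8, the transcript Hspa8-201 (2394 bases) was at 38.7, 247, 322 and 290 FPKM. The transcript Hspa8-202 (2019 bases) was at 173, 23.7 and 27.6 FPKM in Ctrl, PGC-1α and PGC-1α+OGD and was listed at 0 in Ctrl+OGD. Thus 81.5% of the gene's FPKM belonged to Hspa8-202 in Ctrl and 8.57% or less in the other libraries. Of all stretches of 100 bases in Hspa8-202, 94.9% also occur in Hspa8-201.

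For Hsp90aa1, the transcripts exchanged places in another pair of libraries. Hsp90aa1-202 was at 171, 162, 49.4 and 236 FPKM. Hsp90aa1-201 was at 0.0144, 93.3, 248 and 0.931 FPKM, and 95.0% of its stretches of 100 bases occur in Hsp90aa1-202. With the transcript of the highest mean in place of the sum, the log2 fold change of Hsp90aa1 in Ctrl+OGD vs Ctrl was -1.78 in place of 0.69, and that of Hspa8 was 3.02 in place of 0.62. Dnajb4 had 96.6% of its FPKM in Dnajb4-202 in Ctrl and 40.8% in Ctrl+OGD. By this choice of transcript the direction also differed for Dnajb2, Dnajb4 and Bag1 in Ctrl+OGD vs Ctrl, and for Hsp90aa1, Dnajb2, Dnajb6, Bag1 and Cct8 in PGC-1α vs Ctrl. It differed for Hsph1 in PGC-1α+OGD vs PGC-1α, and for 9 genes in PGC-1α+OGD vs Ctrl+OGD (Hsf1, Hspa8, Hsp90aa1, Dnaja1, Dnajb4, Hspbp1, Ptges3, Tcp1 and Cct8). The comparisons between groups used the sums for every gene.

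**Figure D4:**
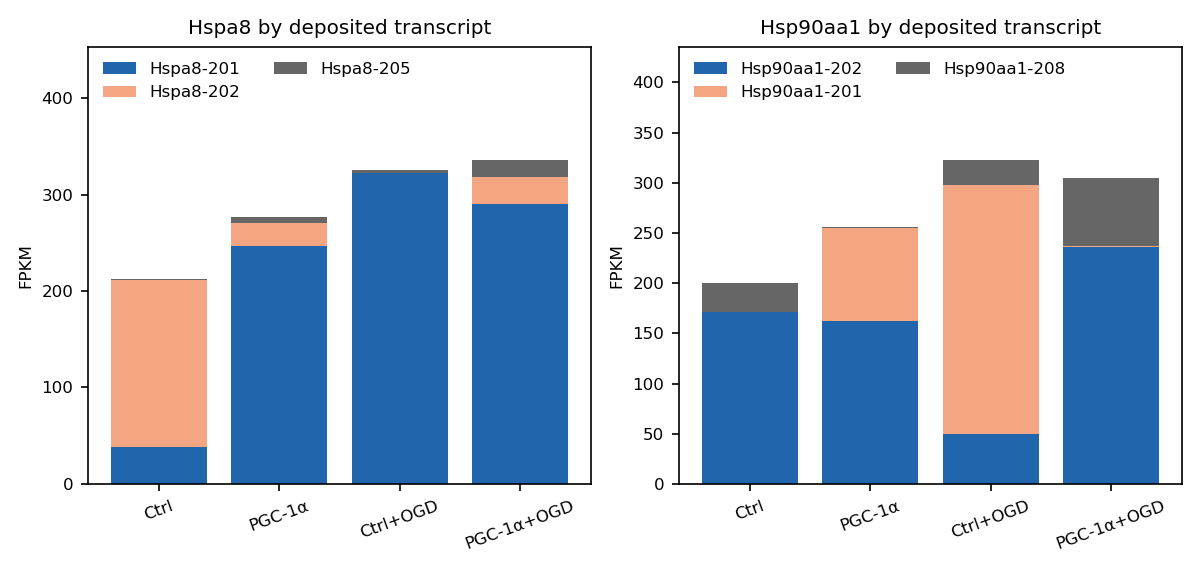
FPKM of the deposited transcripts (stacked colours, from 0) of Hspa8 (left) and Hsp90aa1 (right) in the 4 libraries, 1 library per bar. The leading transcript changes between libraries (Hspa8-202 in Ctrl only, Hsp90aa1-201 in Ctrl+OGD only), while the height of the bar, the sum used for the gene, ranges from 212 to 336 FPKM and from 200 to 322 FPKM.

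Some of these genes also share sequence with other genes. In the leading transcripts, the share of 100-base stretches found without mismatch in GENCODE transcripts of another gene was under 5% for 29 of the 38 genes. It was 62.8% for Hspa8, 58.5% for Dnaja1, 49.9% for Hspa1b, 48.6% for Hspa1a, 47.5% for Hsp90aa1 and 34.9% for Dnajb6. Hspa1a and Hspa1b share these stretches with each other and with Hspa1l, so that their separate levels are uncertain, and the other genes share them with unnamed copies such as Gm15459, Gm15542 and Gm12346. Hsph1 and Tcp1, which were past 1.5-fold after OGD, shared 0% of their stretches, and Stip1 shared 3.24%. Reads from such copies could not be separated in values per transcript.

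Other folding factors, mainly cytosolic and listed by general knowledge, were compared in the same way. These lists too were made with earlier results of these data known. In Ctrl+OGD vs Ctrl, 2 of 15 further HSP90 cochaperones (13.3%) were higher by 1.5-fold, where 6.2% of all genes were, and 0 lower, where 7.71% were, with a median of -0.02 and 7 of 15 genes above 0. They were the peptidyl-prolyl isomerases Ppid, with 8.63 FPKM in Ctrl and 24.5 FPKM in Ctrl+OGD, and Fkbp4, with 87.7 and 148 FPKM. Ppid was at 16.4 FPKM in PGC-1α and 26.6 FPKM in PGC-1α+OGD, so Ctrl was its lowest library as well. In PGC-1α vs Ctrl, 2 of these 15 genes (13.3%) were higher, Ppid and the myosin chaperone Unc45a, where 4.92% of all genes were, and the median was 0.24 with 12 of 15 genes above 0. Unc45a was at 6.52, 12.5, 7.84 and 16.2 FPKM, so both PGC-1α libraries were above both control libraries. It was also the 1 gene of the 15 (6.67%) higher in PGC-1α+OGD vs Ctrl+OGD, where 3.09% of all genes were. In PGC-1α+OGD vs PGC-1α, 1 gene (6.67%), Ppid, was higher, where 3.82% of all genes were. The medians of the 15 genes in these comparisons were 0.00 and -0.06. A list of 17 further genes held mainly J-domain and BAG proteins, and also Hspa12b, a relative of HSP70 rather than a cochaperone. Of the 13 tested, 1 gene (7.69%), Dnajc5, was higher by 1.5-fold in Ctrl+OGD vs Ctrl. This is near the 6.2% of all genes, and the median was 0.03. Dnajc5, the cysteine string protein of synaptic vesicles, was at 14.7, 14.1, 31.8 and 22.0 FPKM. It was also past 1.5-fold after OGD in PGC-1α cells, with a log2 fold change of 0.61. There it was again the 1 higher gene of the 13 (7.69%), where 3.82% of all genes were higher. A list of 11 genes held CCT cofactors and prefoldin, which hands actin and tubulin to CCT. Of the 10 tested, 0 were past 1.5-fold in any of the 4 comparisons. Of all genes, 3.09% to 7.71% were, by comparison and direction. The median of the 10 genes in Ctrl+OGD vs Ctrl was 0.10. A further list of 10 genes held heat shock factors, small heat shock proteins and Hsbp1, the gene of a heat shock factor binding protein. Of these, 3 were tested (Hsf2, Hsbp1 and Hspb6), with log2 fold changes from 0.13 to 0.36 in the same comparison.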

How the data were processed

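RNA-Seq libraries of 4 groups of HT-22 cells, 1 per group as given by the sample titles, were used. The authors enriched poly(A) RNA, prepared stranded libraries and sequenced paired ends of 150 bases. The submitters' processing notes name HISAT2 2.1.0 and GRCm38. The deposited table holds 25889 transcripts. Its values, which the authors made from the aligned reads, were taken here as FPKM, since none is below 0 and the totals differ between libraries. The unit, program, annotation and filter behind them are not given in the sources used here. Reads per library are unknown, so the precision of a value cannot be given.

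Transcripts were matched without version to GENCODE M21 (25811 matched, 78 not) and summed by symbol. Genes whose mean was 1 FPKM or more were compared as log2(FPKM + 1) in 4 comparisons at a fold change of 1.5, the fold criterion of the study. The genes, their roles and the other lists were chosen with earlier results of these data known. Values in all libraries are given for genes past 1.5-fold, for the 5 most abundant genes, for Hsf1 and Hspa8, and for the highest and lowest gene of each role, and some further genes were added after their values were seen. Genes with a mean of 50 FPKM or more were set apart after the data were seen. Alternatives were a pseudocount of 0.1, no filter, a mean of at least 5 FPKM, median ratio scaling and the transcript of the highest mean. Removal of a linear trend in transcript length and GC content was added after the data were seen. The scripts were tested on simulated data and ran under pandas 2.3.3, numpy 2.4.6 and Python 3.11.15.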

Additional observations from a re-analysis of the deposited data

How the results depend on the processing

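The median log2 fold change of the 38 chaperone genes moved by less than 0.1 under every alternative, and stayed between 0.30 and 0.34 in Ctrl+OGD vs Ctrl, 0.14 and 0.20 in PGC-1α vs Ctrl, 0.10 and 0.14 after OGD in PGC-1α cells, and -0.06 and -0.05 in PGC-1α+OGD vs Ctrl+OGD. The 6 genes past 1.5-fold in Ctrl+OGD vs Ctrl were the same with no filter, with a mean of at least 5 FPKM, with median ratio scaling and with the length and GC trend removed. A pseudocount of 0.1 added Hspa1a and Hspa1b to them, and gave 1 gene, Hspa1a, that was lower by OGD in PGC-1α cells. A mean of at least 5 FPKM left 0 genes higher in PGC-1α vs Ctrl, because Hspa1a and Hspa1b were no longer tested.

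With the transcript of the highest mean in place of the sum, 4 genes were higher and 2 lower in PGC-1α vs Ctrl, 3 higher and 1 lower in PGC-1α+OGD vs Ctrl+OGD, 6 higher and 3 lower in Ctrl+OGD vs Ctrl, and 1 lower in PGC-1α+OGD vs PGC-1α. Of the 6 higher genes in Ctrl+OGD vs Ctrl, Hsph1, Dnaja1, Stip1 and Hspa8 were among those past 1.5-fold by the sum, while Cct3 and Hspbp1 were added and Tcp1 was lost with 0.24. The 3 lower genes in Ctrl+OGD vs Ctrl were Dnajb4, Dnajb6 and Hsp90aa1, of which Hsp90aa1 reversed to -1.78. The PGC-1α library then held 26.0 FPKM of Ppargc1a. Over all genes, this choice gave 814 higher and 971 lower genes in place of 521 and 597 in PGC-1α vs Ctrl, and 609 and 755 in place of 327 and 405 in PGC-1α+OGD vs Ctrl+OGD. It gave 1001 and 1084 in place of 657 and 817 in Ctrl+OGD vs Ctrl, and 779 and 910 in place of 405 and 552 for OGD in PGC-1α cells. The cause was not tested. No paired analysis was possible because each group had 1 library.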

Other observations

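Chaperones of other compartments were listed as well. Of 16 chaperones and folding enzymes of the endoplasmic reticulum, 3 were higher by 1.5-fold in Ctrl+OGD vs Ctrl, where 6.2% of all genes were, and the median log2 fold change was 0.30. The 3 genes were Manf, Sdf2l1 and Hspa5. Manf, a secreted factor of endoplasmic reticulum stress, was at 158, 216, 259 and 207 FPKM. Hspa5, the HSP70 of the endoplasmic reticulum, ranged from 250 FPKM in Ctrl to 377 FPKM in Ctrl+OGD. Both were lowest in Ctrl and highest in Ctrl+OGD. After OGD in control cells, 14 of the 16 genes (87.5%) were above 0, beside 86.8% of the 38 cytosolic genes. The PGC-1α library was above Ctrl for 12 of the 16, with a median of 0.22. Between the OGD libraries, PGC-1α cells were above control cells for 3 genes and below for 13, with a median of -0.08. Low Ctrl values were thus not limited to the cytosolic genes. Outside Ctrl+OGD vs Ctrl, 0 of these 16 genes were past 1.5-fold. Of all genes, 3.09% to 5.63% were, by comparison and direction.

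Of 11 mitochondrial chaperones, 1 gene was higher and 1 lower by 1.5-fold in PGC-1α vs Ctrl, where 4.92% of all genes were higher and 5.63% lower, and the median was 0.20. The higher gene was Clpb, a disaggregase of the intermembrane space, which was at 6.98, 12.8, 6.21 and 12.8 FPKM. Both PGC-1α libraries were thus above both control libraries, and Clpb was also higher by 1.5-fold in PGC-1α+OGD vs Ctrl+OGD. The lower gene was Hscb, a J-domain protein of iron-sulfur cluster assembly, at 21.8, 13.7, 16.8 and 16.4 FPKM. Hspa9, the mitochondrial HSP70, was at 368, 487, 476 and 548 FPKM and had its lowest value in Ctrl. In Ctrl+OGD vs Ctrl, 9 of these 11 genes were above 0, with a median of 0.28 beside 0.32 for the 38 cytosolic chaperone genes. In that comparison 1 gene (9.09%) was higher by 1.5-fold, where 6.2% of all genes were. It was Dnajc19, of the mitochondrial import motor, at 65.9, 68.8, 101 and 92.3 FPKM. After OGD in PGC-1α cells, 9 of the 11 genes were again above 0, with a median of 0.16, and 0 were past 1.5-fold.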
